A study of Homo sapiens with 26 samples.

Results

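ERP29 and 7 protein disulfide isomerases and thioredoxin-fold proteins of the endoplasmic reticulum (ER), namely P4HB, PDIA3, PDIA4, PDIA6, ERP44, TXNDC5 and TXNDC12, were followed codon by codon through ribosome profiling of Huh7 cells treated with PF-06446846. These 8 genes are 8 of 12325 transcripts with a codon map, 11270 of which have a GENCODE symbol. ERP29 was selected on its footprint positions in these libraries and the others as its relatives, so its positions and its footprint counts under the compound are given as a description. Fits across all transcripts include ERP29, and its own calls in them are no independent evidence. All 8 were read deeply enough to enter every comparison.

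Huh7 is an established human hepatoma cell line, and PF-06446846 is a small molecule that acts on translation by the human ribosome. In study 1, cells in fresh medium received vehicle (DMSO at 0.5%) or the compound at a dose of 0.3 or 1.5 μM for 10 min or 60 min, with 3 biological replicates in each of the 6 groups, and ribosome footprints, the mRNA fragments covered by ribosomes, were sequenced (ribo-seq). In study 2, cells received 1.5 μM compound or vehicle for 60 min in 2 biological replicates, and ribo-seq and mRNA-seq libraries came from the same samples. The labels name no genetic change in the cells, and the untreated control is the vehicle group of the same time point and study. A footprint library held 6414227 to 22224137 reads in coding sequences (CDSs) and an mRNA-seq library 15227654 to 22036358. The hepatocyte lineage was readily seen: 7 of 8 liver markers had a codon map, and AFP, the fetal albumin-like protein, was read at 8878 to 14910 CDS-normalized reads (RPM, reads per 1000000 reads in CDSs) in the ribo-seq libraries. The eighth, ALB, had no map under its symbol, and of 4 markers of other cell types only PECAM1 had a map, at 11.5 to 26.7 RPM. Some maps carry no symbol, so a missing map is not read as absence of the transcript.

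Protein disulfide isomerases fold secreted and membrane proteins in the ER. A thioredoxin-like domain with a pair of cysteines forms, breaks or reshuffles disulfide bonds in a client protein and is then reoxidized by an ER oxidase such as ERO1A. In hepatocytes they serve the export of plasma proteins and lipoproteins. ERP29 has the thioredoxin fold but lacks the active-site cysteine pair, and is known as a folding and escort factor. Like its relatives it enters the ER by an N-terminal signal peptide, so the ribosomes that translate the start of its CDS are those that engage the secretory pathway.

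The ERP29 map follows a short, incomplete transcript model (ENST00000552052) of 95 codons and not the reference transcript (ENST00000261735), whose CDS has 262 codons. The gene lies on chromosome 12, plus strand, at chr12:112013348-112023449 (GRCh38). Its 3 sequence blocks are shown because all counts below are read against them. Map codons 1 to 43 lie in exon 1 and correspond to reference codons 5 to 47. Map codon 44 spans the junction, and the codons from there to 68 lie in a stretch that is intronic in the reference transcript. Map codons 69 to 95 lie in the coding exon 2 that the reference shares, at reference codons 49 to 75. In exon 1 the map's triplets start at base 2 of a reference codon, so positions there are known to within a codon. The capitals mark map codon 28, which starts in reference codon 32 and had the largest gain in its share of footprints at 10 min. Coordinates and letters are from the GRCh38 assembly with GENCODE release 44, plus strand.
Exon 1, chr12:112013480-112013609: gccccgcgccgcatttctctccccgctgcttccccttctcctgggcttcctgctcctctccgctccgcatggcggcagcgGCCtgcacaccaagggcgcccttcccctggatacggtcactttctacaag
Stretch absent from the reference transcript, chr12:112019683-112019755: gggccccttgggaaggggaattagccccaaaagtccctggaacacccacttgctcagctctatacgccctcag
Shared part of exon 2, chr12:112019756-112019836: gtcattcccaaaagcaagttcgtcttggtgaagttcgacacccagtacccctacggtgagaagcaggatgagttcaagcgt

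Reads fell on exon 1 and on the shared part of exon 2, and almost none fell between them. The stretch absent from the reference transcript held 0 to 3 footprints in each ribo-seq library and 0 to 11 reads in each mRNA-seq library. The split of reads between the 2 outer blocks therefore sets the mean position of ERP29, and nothing beyond reference codon 75 enters it. RPM are shares of a library, so in these bulk libraries fewer cells and less RNA per cell cannot be told apart. The relatives have maps of 275 codons (P4HB, ENST00000415593, chr17:81843159-81860856, minus strand), 506 (PDIA3, ENST00000300289, chr15:43746394-43773279, plus), 646 (PDIA4, ENST00000286091, chr7:149003062-149028662, minus), 441 (PDIA6, ENST00000272227, chr2:10783391-10837977, minus), 407 (ERP44, ENST00000262455, chr9:99979185-100099052, minus), 433 (TXNDC5, ENST00000379757, chr6:7881517-7910788, minus) and 173 (TXNDC12, ENST00000371626, chr1:52020131-52055191, minus). The P4HB and PDIA4 maps differ in length from GENCODE release 44 (419 and 647 codons), so their codon numbers are those of the maps. The P4HB map cannot cover the whole CDS that release 44 gives this transcript, and the P4HB values below are for its map alone. No run of 28 bases in the ERP29 transcript occurred in any other of the 11270 transcripts searched, and the same held for each of the relatives.

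After 10 min at 1.5 μM, ERP29 carried more footprints on exon 1 and a similar or lower number on exon 2. Exon 1 was read at 58.4, 39.4 and 34.8 RPM in the treated libraries and at 16.8, 14.98 and 18.5 RPM with vehicle. The groups did not overlap, and the means of 44.2 ± 12.5 and 16.7 ± 1.76 RPM (SD, n = 3) are 2.64-fold apart. How often parts of other transcripts separate this way was not counted, here or in the comparisons below. The shared part of exon 2 was read at 19.9, 27.0 and 28.5 RPM against 33.8, 27.4 and 30.2 RPM, a ratio of 0.826 with overlapping groups. Exon 1 thus held 54.98% to 74.5% of the reads of the map in the treated libraries and 33.1% to 38.01% in the vehicle libraries.

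Map codon 28 gained most. It carried 56, 89 and 32 reads in the 3 treated libraries against 5, 7 and 6 with vehicle. Its level was 6.88 ± 3.08 RPM against 0.519 ± 0.211 RPM (SD, n = 3), or 13.3-fold apart, and its share of the ERP29 reads was 9.81% ± 4.23 against 1.12% ± 0.475. The gain was not restricted to this codon, since exon 1 without it was still 2.30-fold higher. Among codons with at least 10 reads in both groups together, the mean was higher under the compound at 24 of 27 in exon 1 and lower at 18 of 20 in exon 2. Map codon 33, for example, was at 3.63 ± 0.402 RPM against 1.34 ± 0.263 RPM, and map codon 35, which held 2 reads in the pooled vehicle libraries, held 30 in the pooled treated libraries.

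**Figure D1:**
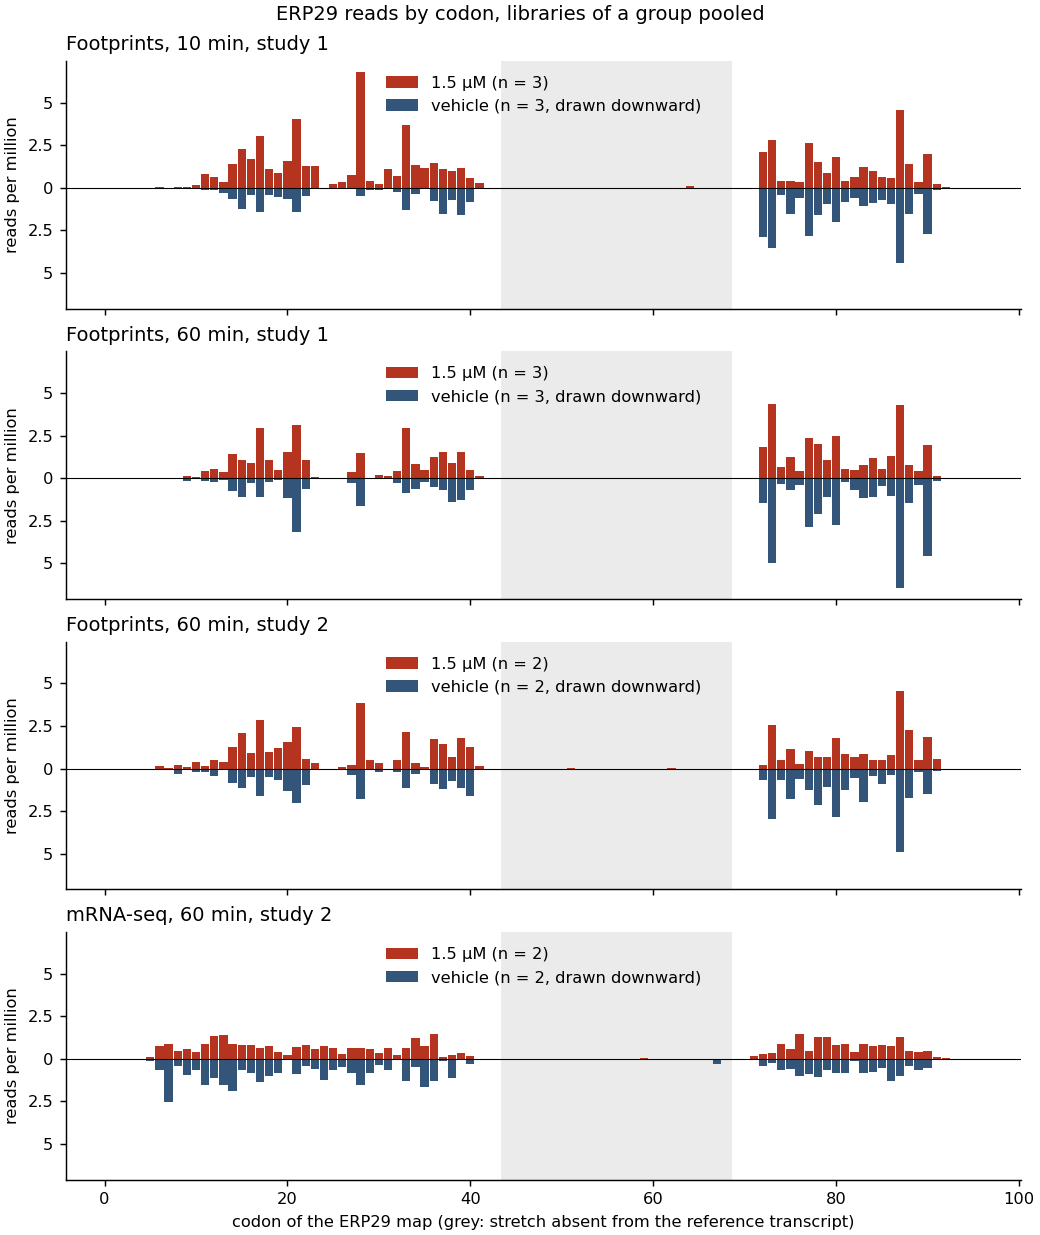
ERP29 footprints or mRNA-seq reads by codon of the map (x axis), in RPM over the pooled libraries of a group (y axis), with 1.5 μM drawn upward in red and vehicle downward in blue; the grey band is the stretch absent from the reference transcript. The tallest bar, 177 pooled reads at map codon 28 after 10 min at 1.5 μM, faces 18 reads with vehicle, while the exon 2 bars differ less.

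After 60 min in study 1 the excess on exon 1 was smaller, and map codon 28 was not the place of its largest rise. Exon 1 was read at 25.3, 32.5 and 29.4 RPM with 1.5 μM and at 13.6, 16.8 and 23.2 RPM with vehicle, with no overlap and means of 29.1 ± 3.60 and 17.9 ± 4.90 RPM (SD, n = 3, 1.63-fold). Exon 2 was at 26.9, 29.03 and 31.9 RPM against 37.1, 33.4 and 34.6 RPM, a ratio of 0.835, also without overlap. Map codon 28 was at 2.01 ± 1.50 RPM against 1.56 ± 0.270 RPM, within the spread of the replicates. Map codon 33 was the place of the largest rise in the share of reads, with 118 pooled reads against 28. The difference between the 2 times in the change summed over the map, fitted as an interaction, was -0.47 on the log2 scale (SE 0.184), where edgeR called none of the 8 genes.

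Study 2 gave the same direction at 60 min. Exon 1 was at 31.9 and 30.5 RPM with 1.5 μM and at 21.8 and 19.2 RPM with vehicle, a ratio of 1.52. Exon 2 was at 21.7 and 23.7 RPM against 28.4 and 27.5 RPM, a ratio of 0.813. Neither block overlapped between the groups of 2, in a comparison where 20.2% of all transcripts had a lower mean position without overlap. Map codon 28 was the place of the largest rise in the share of reads here, by 3.50 points, unlike in study 1 at the same dose and time. It carried 60 and 39 reads against 23 and 17, or 3.90 against 1.79 RPM on average (2.18-fold, without overlap), and exon 1 without it was 1.46-fold higher.

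At 0.3 μM the 10 min result depended on 1 library. Exon 1 was at 30.6, 8.93 and 25.1 RPM, so that replicate 2 lay below every vehicle library while replicates 1 and 3 lay above, and the ratio to vehicle was 1.29. Without replicate 2, left out after seeing the data, the mean was 27.8 against 16.7 RPM, a ratio of 1.66 without overlap, and without replicate 1 the ratio was 1.02. At 60 min exon 1 was at 20.5, 19.5 and 17.5 RPM, inside the vehicle range, with a ratio of 1.07. Map codon 28 held 26 pooled reads at 10 min and 36 at 60 min, against 18 and 52 with vehicle.

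The mRNA-seq reads of study 2 did not show the footprint pattern. Exon 1 was at 23.4 and 22.7 RPM with the compound and at 23.5 and 37.1 RPM with vehicle, a ratio of 0.761 set by vehicle replicate 5, since the other 3 libraries lie within 22.7 to 23.5 RPM. The groups did not overlap, though replicate 4 was at 23.42 RPM with the compound and 23.48 RPM with vehicle. Exon 2 was at 13.4 and 16.5 RPM against 13.7 and 13.3 RPM, a ratio of 1.11 with overlap. Map codon 28 carried 10 and 12 reads against 23 and 38, or 0.442-fold in RPM, also without overlap. Of 35 exon 1 codons with at least 10 reads in both groups together, 9 were lower without overlap under the compound and 3 higher. Groups of 2 libraries thus separate at single codons in both directions.

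**Figure D2:**
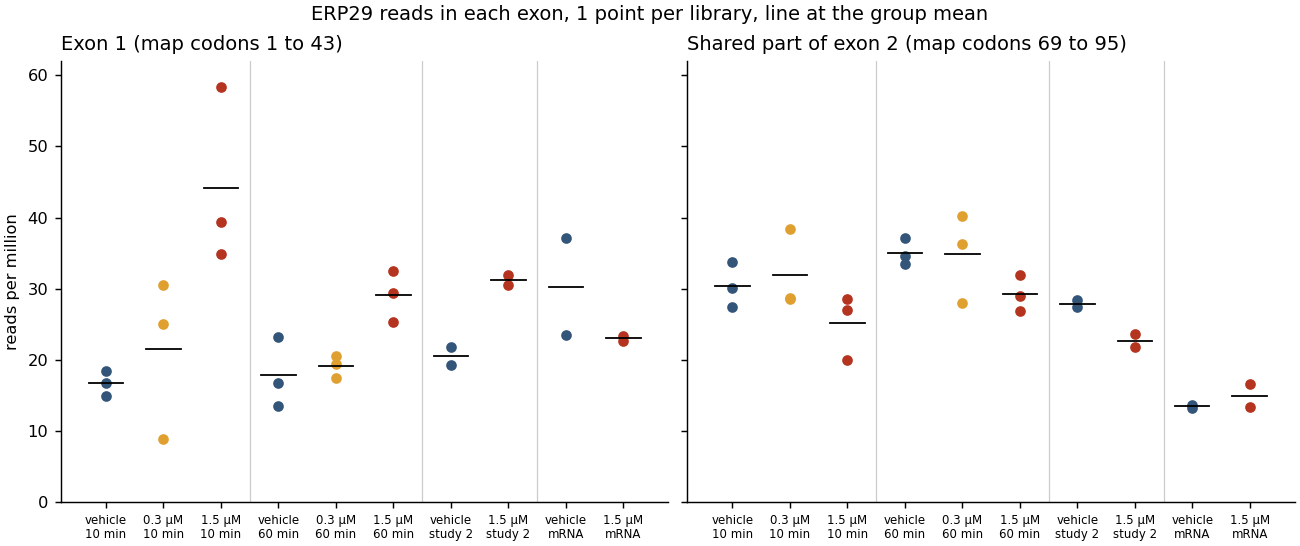
ERP29 RPM (y axis) in exon 1 and in the shared part of exon 2, with 1 point per library and a line at the group mean for each treatment, time and study (x axis). Exon 1 points at 1.5 μM lie above the vehicle points in the 3 footprint comparisons, with means 2.64-, 1.63- and 1.52-fold apart, and not in mRNA-seq.

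The same shift appears in the mean read position, which the study calls the center of density. It is the average codon of the reads as a percentage of map length. The ERP29 map has 95 codons and ends at reference codon 75 of 262, so its values are not percentages of its CDS. With 10 min at 1.5 μM the mean position was 41.0, 50.7 and 53.5% of the map in the 3 ERP29 libraries and 65.8, 64.4 and 64.4% with vehicle. At 60 min it was 55.7, 54.4 and 57.9% against 69.8, 66.3 and 62.9%, and in study 2 it was 51.3 and 52.6% against 60.2 and 61.1%. The treated libraries were lower without overlap each time, with differences of -16.5, -10.4 and -8.73 points (treated minus vehicle). In the same comparisons 21.7%, 7.94% and 20.2% of all transcripts were lower without overlap. The mRNA-seq libraries were at 45.7 and 48.5% against 45.9 and 38.7%, 4.76 points higher on average, with overlap. At 0.3 μM the libraries were at 53.7, 74.9 and 57.9% after 10 min and at 59.6, 65.0 and 68.2% after 60 min, overlapping with the vehicle values, with differences of -2.74 and -2.05 points. Replicate 2 at 10 min stands apart with 74.9%. Without it the difference was -9.12 points with no overlap, and without replicate 1 it was 1.52 points. Replicate 2 also had the highest position of the 26 libraries for P4HB (58.3%) and for TXNDC5 (61.9%).

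Among all transcripts with enough reads, ERP29 had the 38th lowest difference of 10636 at 10 min, the 67th lowest of 10482 at 60 min and the 187th lowest of 10921 in study 2. These differences are in percent of map length, and the ERP29 map is short, with 95 codons and almost no reads over 25 of them. Neither the ranks nor the Z-scores below were adjusted for map length, and the Z-scores do not subtract the mean of the transcripts they are scaled by. The median transcript moved by -1.23, -0.60 and -0.29 points in the same comparisons. In Z-scores scaled by transcripts of like read depth, where a positive value is a shift toward the 5′ end, ERP29 stood at 4.15, 3.13 and 3.65, past the threshold of 3 that 0.282%, 0.181% and 0.211% of transcripts passed in either direction. Leaving out a same-numbered pair of libraries gave 2.99 to 4.90 at 10 min, the lowest without pair 1, and 2.79 to 3.80 at 60 min, under 3 without pair 1 or 2. Its Z-score was 0.793 and 0.691 at 0.3 μM and -1.65 in mRNA-seq, where 0.0188%, 0.00945% and 0.0259% of transcripts passed. Without pair 2 the Z-score at 0.3 μM and 10 min was 3.63, and without pair 1 it was -0.51. Because ERP29 was chosen on these positions, nothing is read from its place in those shares.

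Dmax, the largest excess of the cumulative share of footprints under the compound over that with vehicle, was 0.316 at map codon 36 after 10 min, 0.156 at map codon 37 after 60 min and 0.160 at map codon 39 in study 2. These maxima lie past map codons 28 and 33 and within exon 1. The Dmax Z-scores were 4.24, 3.11 and 3.43, and 3.48%, 2.67% and 2.38% of all transcripts reached 2. In mRNA-seq Dmax was 0.0040, with a Z-score of 0.083, and at 0.3 μM the Z-scores were 0.754 and 1.31, where 2.37%, 3.56% and 2.37% of transcripts reached 2. Without pair 2 the Dmax at 0.3 μM and 10 min was 0.163 at map codon 36 with a Z-score of 3.92, against 0.0378 with all libraries.

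**Figure D3:**
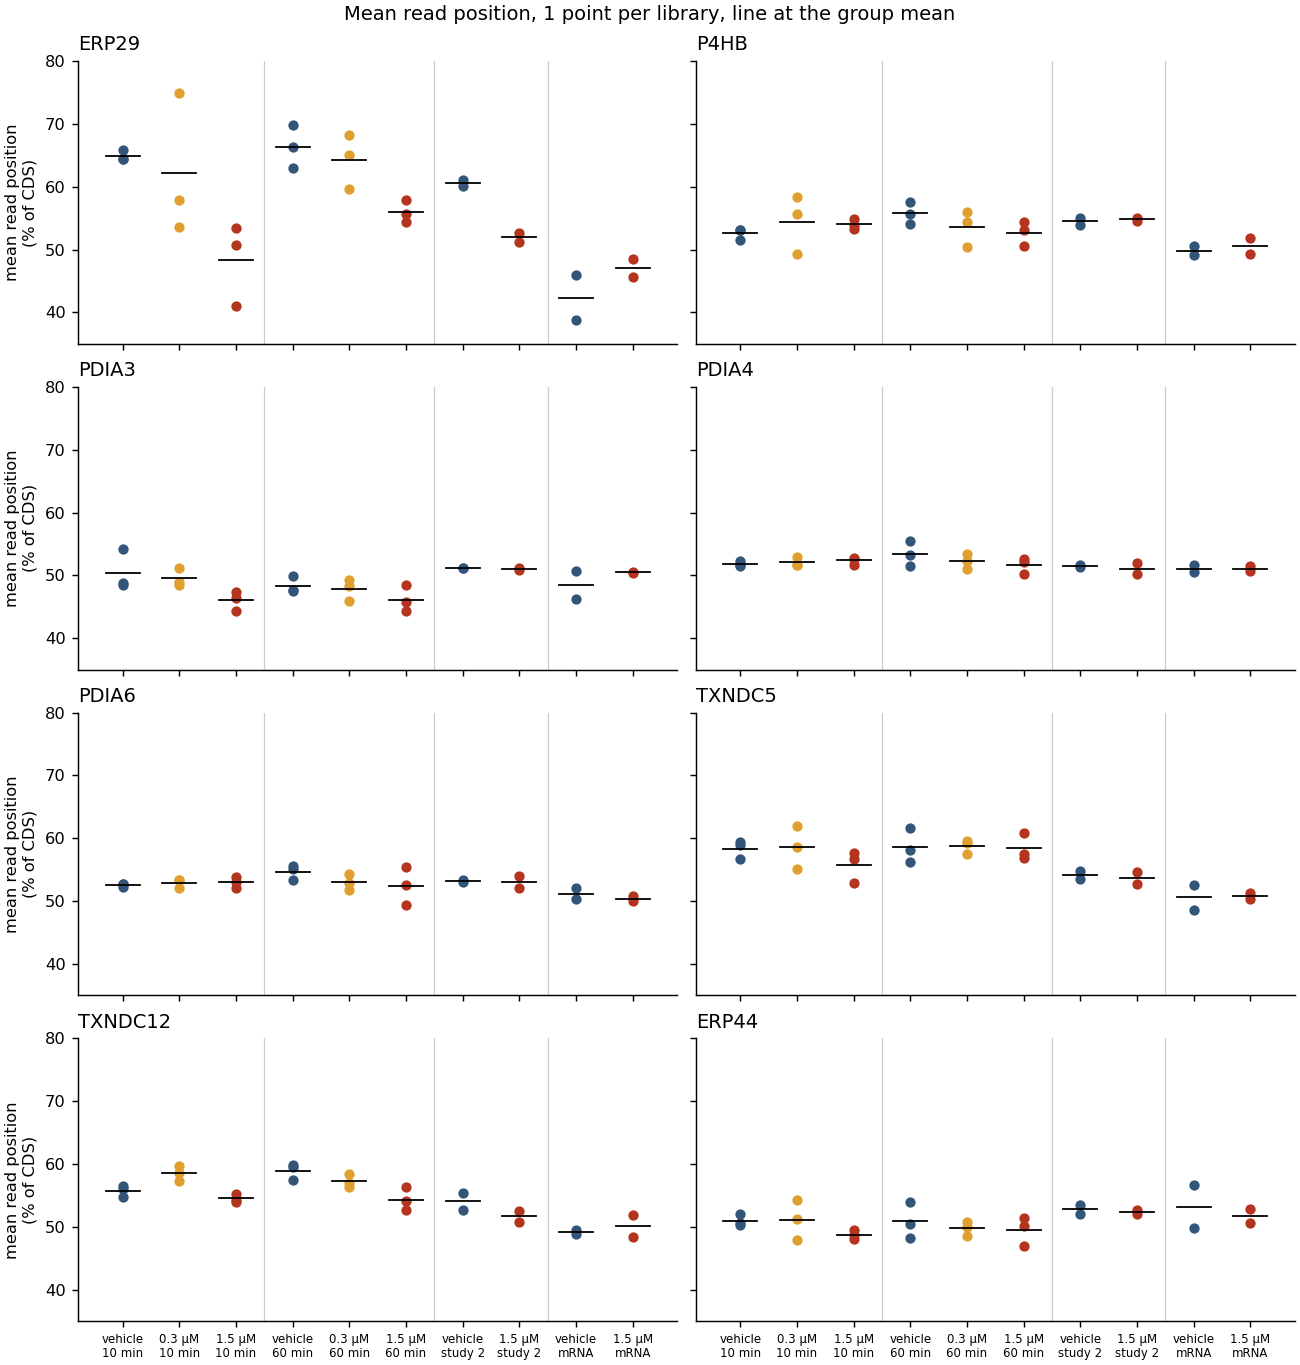
Mean read position as a percentage of map length (y axis, labelled % of CDS) for each of the 8 genes, with 1 point per library and a line at the group mean, by treatment, time and study (x axis). The ERP29 map covers only part of its CDS. ERP29 at 1.5 μM differs from vehicle by -16.5, -10.4 and -8.73 points in the footprint comparisons, while the group means of the relatives differ by -4.59 to 1.46 points there.

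In percent of map length the footprints of the relatives moved less at 1.5 μM than those of ERP29, over maps of 173 to 646 codons against its 95. Counted in codons this order did not hold throughout. PDIA3, at -4.39 points of 506 codons, moved further at 10 min than ERP29, at -16.5 points of 95. At 60 min PDIA3 (-2.22 points of 506 codons) and PDIA4 (-1.76 of 646) moved further than ERP29 (-10.4 of 95). In study 2 no relative did. At 0.3 μM the order did not hold in percent of map length either. TXNDC12 differed by 2.77 points against -2.74 for ERP29 at 10 min, and P4HB by -2.20 against -2.05 at 60 min. At 10 min and 1.5 μM, PDIA3, which folds glycoproteins with calnexin and calreticulin, had positions of 44.4, 46.4 and 47.4% against 48.8, 54.1 and 48.5% with vehicle. ERP44, a thioredoxin-fold protein that returns ERO1A and unassembled clients to the ER, had 49.6, 48.7 and 48.1% against 50.6, 52.0 and 50.3%. Both were lower without overlap, with differences of -4.39 and -2.18 points, in a comparison where 21.7% of all transcripts were. P4HB, the abundant founding disulfide isomerase and also a subunit of prolyl 4-hydroxylase, moved the other way, with 53.3, 54.9 and 53.9% against 51.5, 53.1 and 53.1%, as 4.84% of transcripts did. PDIA4, PDIA6, TXNDC5 and TXNDC12 overlapped with vehicle, and no relative reached the Z-score thresholds for mean position or Dmax at 10 min.

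At 60 min TXNDC12, a small ER protein with a single thioredoxin-like domain, was at 52.7, 54.0 and 56.3% against 57.4, 59.8 and 59.5%. It was lower without overlap, with a difference of -4.59 points, as 7.94% of all transcripts were, and its Dmax Z-score was 2.05. The other 6 relatives overlapped with vehicle, with differences from -3.12 (P4HB) to -0.225 points (TXNDC5). Taken by same-numbered libraries, which deviated together at this time, P4HB, PDIA3, PDIA4 and PDIA6 were lower than vehicle in every pair. ERP44 and TXNDC5 were lower in all pairs but that of replicate 3. The share of all transcripts lower in every pair was not counted, and the median transcript moved by -0.60 points. In study 2 TXNDC12 was again lower without overlap, at 50.8 and 52.5% against 52.7 and 55.4%, in a comparison where 20.2% of transcripts were and where 2 libraries stood against 2. Its Dmax Z-score there was 1.57, and the other relatives differed by -0.458 (TXNDC5) to 0.297 points (P4HB). At 0.3 μM and 10 min TXNDC12 lay higher without overlap, at 58.6, 59.8 and 57.3% against 56.6, 56.0 and 54.8%, as 3.36% of transcripts did. Codon 172 of its 173-codon map held 1.39%, 12.8% and 5.52% of the reads in these 3 libraries and 1.51%, 1.57% and 4.25% with vehicle, so the groups overlap there. The pooled share of 8.48% rests on replicate 2, without which it was 3.17%, against 2.14% with vehicle. With all libraries, no gene of the 8 was lower without overlap at 0.3 μM or in mRNA-seq, where 3.42%, 4.52% and 14.8% of transcripts were.

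The share of reads within the first 45 codons was higher in several relatives at 10 min. For ERP29 this window is nearly exon 1, and the share averaged 62.9% against 35.5%. TXNDC5, an isomerase with several thioredoxin-like domains, held 7.35% against 3.12% on average, with treated libraries from 6.03% to 9.85% and vehicle libraries from 2.33% to 4.17%. PDIA3 held 7.68% against 4.62%, PDIA6, an isomerase that works with the chaperone BiP, 7.98% against 6.59% and PDIA4, a large isomerase of ER chaperone complexes, 5.40% against 4.07%. These relatives, and ERP29, which was chosen on such a shift, were higher without overlap, as were 21.2% of all transcripts. Such a difference was frequent at this time, and whether the relatives exceed that share was not tested. P4HB averaged 11.05% against 12.8%, the opposite direction, and ERP44 and TXNDC12 overlapped.

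At 60 min ERP29 (49.7% against 33.5%) and P4HB (12.3% against 10.51%) were higher without overlap, as 5.34% of transcripts were. In study 2 ERP29 (57.8% against 42.3%), PDIA4 (7.71% against 5.66%) and TXNDC5 (8.64% against 5.99%) were, as were 18.5% of transcripts. PDIA6 was the only gene of the 8 with such a difference in mRNA-seq (10.8% against 9.25%; 15.8% of transcripts), and ERP29 was at 60.7% against 67.9%. With 2 libraries in each group such separation is common in study 2.

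Summed over the codon map, ERP29 carried more footprints after 10 min at 1.5 μM and none of its relatives passed the test. ERP29 had 78.3, 66.5 and 63.3 RPM after 10 min at 1.5 μM and 50.7, 42.4 and 48.6 RPM with vehicle, with no overlap and a log2 fold change of 0.60 (SE 0.124). The share of all transcripts without overlap in this sum was not counted. ERP29 was the only one of the 8 among the 94 transcripts (0.851% of 11045) called at an FDR of 0.1 by edgeR, but it was chosen on these libraries and nothing is read from that call. The call was lost without treated replicate 1 or 2 and without vehicle replicate 1 or 2. Since exon 2 did not rise, the gain over the map lies in exon 1, and with codons after map codon 50 alone the log2 fold change was -0.19. The ERP29 sum holds nothing beyond reference codon 75 of 262, so it does not measure its whole CDS. The relatives lay between -0.35 and 0.11, around a median transcript at 0.01. ERP44 was the lowest of them, with 70.7, 75.3 and 81.9 RPM against 99.2, 123 and 80.0 RPM, overlapping, a log2 fold change of -0.35 (SE 0.136) and an edgeR adjusted p of 0.220. ERP44 was called without vehicle replicate 3, at -0.47 (SE 0.121, edgeR adjusted p = 0.0334), where edgeR called 1656 of 11130 transcripts. It was also called with a replicate block, at -0.34 (SE 0.122, edgeR adjusted p = 0.0826), where edgeR called 1196 of 11045. Calls were frequent under both settings, so little is read from those of ERP44. PDIA3 had 871, 985 and 913 RPM against 1025, 1203 and 978 RPM, overlapping in a single pair of libraries, with a log2 fold change of -0.15 (SE 0.104, edgeR adjusted p = 0.442). PDIA4, PDIA6, TXNDC5 and TXNDC12 lay between -0.17 and -0.02, so 6 of the 7 relatives had values below 0 and none passed the test. P4HB was the highest, with 667, 698 and 683 RPM against 683, 687 and 598 RPM and a log2 fold change of 0.11 (SE 0.0951, edgeR adjusted p = 0.553).

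At 60 min none of the 8 was called in study 1 or study 2, where edgeR called 8 and 13 transcripts (0.0726% and 0.115%). The log2 fold change of ERP29 was 0.14 (SE 0.140) in study 1, with 52.2, 61.5 and 61.3 RPM against 50.7, 50.3 and 57.8 RPM, and 0.15 (SE 0.0884) in study 2, with 53.8 and 54.2 RPM against 50.2 and 46.7 RPM. Same-numbered libraries of study 1 deviated together at this time, and a fit blocked on them called 51 transcripts and again none of the 8. The relatives lay between -0.15 and 0.09 in study 1 and between -0.06 and 0.11 in study 2. At 0.3 μM edgeR called 0 transcripts at either time (0% of 11131 and of 11141), with 104 and 97 at an unadjusted p below 0.05 and 0 by DESeq2, and ERP29 had log2 fold changes of 0.20 (SE 0.128) and 0.03 (SE 0.130).

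**Figure D4:**
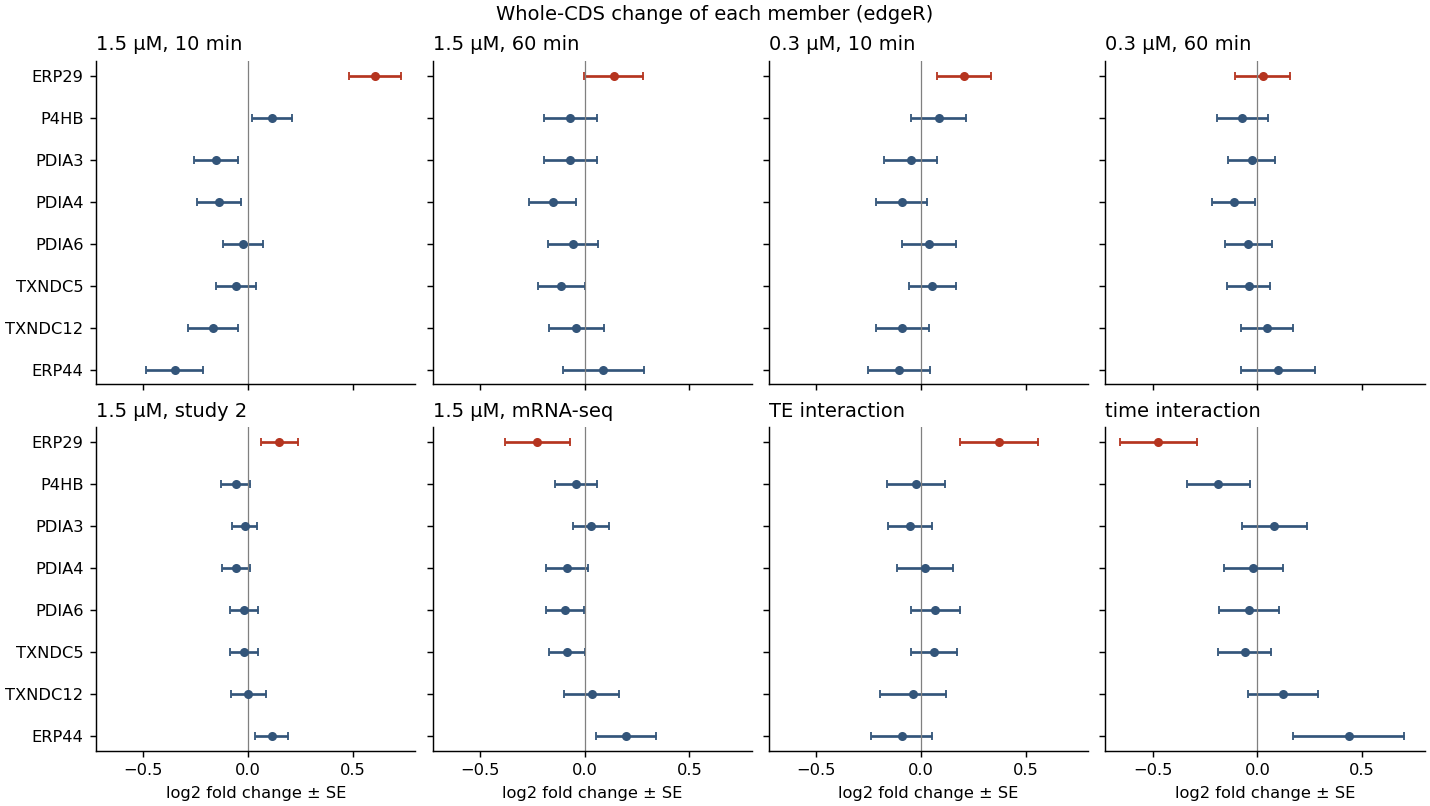
Log2 fold change of reads summed over the codon map with its standard error (x axis) for each of the 8 genes (y axis) in 8 edgeR comparisons. The last 2 are the interaction for translational efficiency and the difference between 60 and 10 min. The ERP29 map covers only part of its CDS. ERP29 (red) lies at 0.60 at 10 min and 1.5 μM, in libraries on which it was chosen, and the relatives lie between -0.35 and 0.11 there.

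Transcript levels of the 8 genes showed no called change. In mRNA-seq edgeR called 0 of 11812 transcripts (0%), with 228 at an unadjusted p below 0.05 and 1 by DESeq2. ERP29 was at 36.8 and 39.3 RPM with the compound and at 37.3 and 50.8 RPM with vehicle, a log2 fold change of -0.23 (SE 0.155, edgeR adjusted p = 0.999) that was 0.01 without vehicle replicate 5. The relatives lay between -0.09 and 0.20. Translational efficiency (TE), tested as the interaction of assay and treatment, was called for 4 of 11799 transcripts (0.0339%) and for none of the 8, and for 13 and none of the 8 when the replicate number was a block. The TE difference of ERP29 was 0.37 (SE 0.187), but 0.13 (SE 0.143) without the mRNA-seq library of vehicle replicate 5, and the relatives lay between -0.09 and 0.07. The difference between times was called for 0 of 11167 transcripts (0%), with 506 at an unadjusted p below 0.05 and 1 by DESeq2.

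P4HB and PDIA3 were the most translated of the 8 genes and ERP44 the least. Per codon of the map, vehicle footprints at 10 min averaged 2.39 RPM in P4HB, 2.11 in PDIA3, 1.36 in PDIA6, 1.07 in PDIA4, 0.637 in TXNDC5, 0.359 in TXNDC12 and 0.248 in ERP44. That order of the relatives also held in the vehicle footprints at 60 min and in study 2, where only P4HB and PDIA3 at 60 min overlapped among neighbours, as they did at 10 min. The place of ERP29 beside TXNDC5 depended on the divisor. Over its 95 map codons ERP29 was at 0.497, 0.557 and 0.510 RPM per codon in the 3 vehicle groups, below TXNDC5. Over the 70 codons shared with the reference transcript, a divisor chosen after seeing the data, it was at 0.674, 0.756 and 0.692, above TXNDC5 in the last 2 groups and overlapping with it at 10 min. Both divisors count codons at the block ends without reads in any group, such as map codons 1 to 4 and 93 to 95. In mRNA-seq P4HB again led with 2.30 RPM per codon and ERP44 was again last with 0.0766, while PDIA4 (0.894) came before PDIA6 (0.735) and overlapped with PDIA3 (0.914).

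Footprints per mRNA read differed widely between the genes. ERP44 had a ratio of footprint to mRNA RPM of 2.84 and 3.02 in the vehicle samples, PDIA3 2.30 and 2.18, and PDIA6 1.66 and 1.58. P4HB, with 0.848 and 1.02, and TXNDC5, with 0.968 and 0.871, lay near the medians of 0.990 and 0.986 over 9230 transcripts. ERP29 was at 1.34 and 0.919 with vehicle and at 1.46 and 1.38 with the compound, and the low value comes from vehicle replicate 5, whose exon 1 mRNA reads were high. For ERP29 these ratios cover only the 95 codons of its map, which ends at reference codon 75 of 262.

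**Figure D5:**
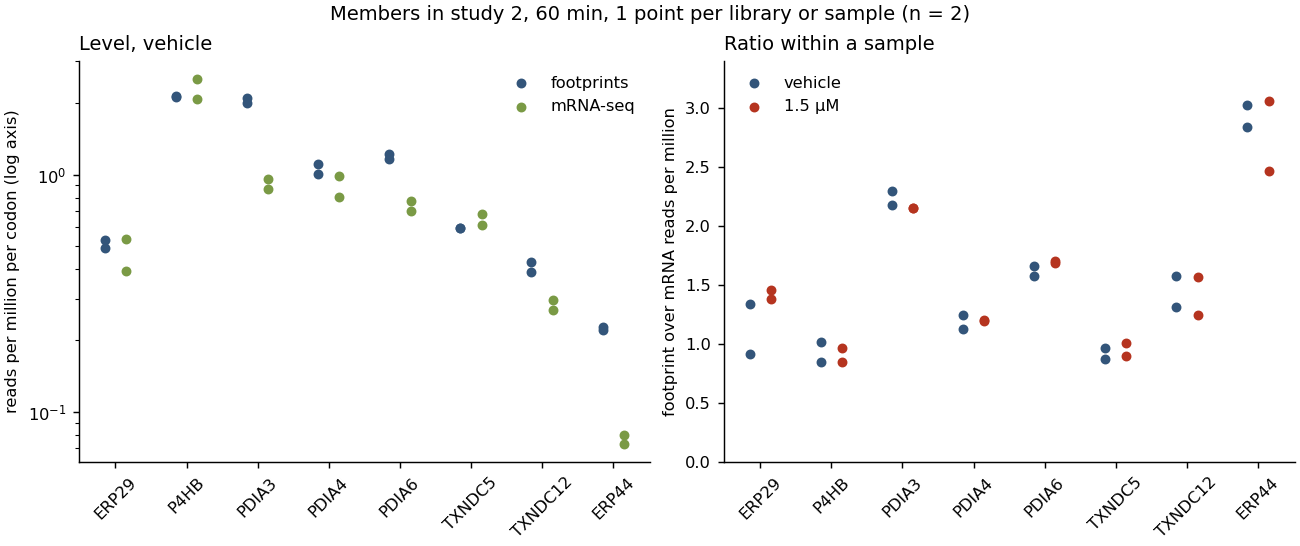
Left, vehicle level in study 2 as RPM per map codon (95 for ERP29) on a log axis, footprints in blue and mRNA-seq in green, for each of the 8 genes; right, footprint over mRNA RPM in each sample, vehicle in blue and 1.5 μM in red. ERP44 is lowest in level and highest in ratio, with 2.84 and 3.02 in the vehicle samples.

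A wider list of 24 genes of ER oxidative folding was read alongside, and 20 of them had a transcript and were tested. At 10 min and 1.5 μM, 1 fell and 0 rose, against 0.851% of all transcripts called. The gene that fell was ERO1A, the oxidase that recharges P4HB, at -0.65 on the log2 scale (SE 0.127, edgeR adjusted p = 0.0547). The highest value was that of VKORC1, the vitamin K epoxide reductase that supports liver clotting factors, at 0.44 (SE 0.144, edgeR adjusted p = 0.170). The median over the 20 was -0.06, against 0.01 over all transcripts. None of the 20 was called in the 7 other comparisons.

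The extremes that follow are among genes of the list averaging 50 reads or more per library. At 60 min they were QSOX1, a sulfhydryl oxidase, at -0.26 (SE 0.191) and VKORC1L1, the paralog of VKORC1, at 0.29 (SE 0.147). In study 2 they were QSOX1 at -0.29 (SE 0.0974) and TMX4, a membrane-bound thioredoxin-fold protein, at 0.12 (SE 0.0912). In mRNA-seq they were CRELD1 at -0.22 (SE 0.322) and GPX7, an ER glutathione peroxidase, at 0.25 (SE 0.336), and in TE they were DNAJC10, an ER disulfide reductase, at -0.34 (SE 0.154) and CRELD2 at 0.21 (SE 0.128). Below that depth, GPX8 lay beyond these at 0.34 (SE 0.31) in study 2, 0.76 (SE 0.52) in mRNA-seq and -0.43 (SE 0.58) in TE. GPX7 in study 2 was at 0.20 (SE 0.33), also beyond TMX4. ERO1A itself was at -0.06 (SE 0.197) after 60 min and at 0.00 (SE 0.0903) in study 2.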

How the data were processed

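Ribo-seq (22 libraries) and mRNA-seq (4 libraries) of Huh7 cells were analysed. The authors aligned reads, after removal of adapter and rRNA sequence, with Bowtie 1.1.2, keeping reads with few best alignments, to the most abundant isoform of each expressed gene by kallisto 0.42.5 (GRCh38; versions per the submitters' processing notes). They deposited raw read counts per codon, placed at the inferred P-site, without normalization. A series-level text of their Python scripts holds no measurements and gave the definitions used. Reads are not collapsed by molecular identifiers. Groups came from the sample labels. Transcripts were named with GENCODE 44. Reads were summed over each CDS and divided by the library's CDS total (RPM). CDS sums were tested with edgeR 4.0.16 (filterByExpr, TMM, quasi-likelihood, Benjamini-Hochberg, FDR 0.1; R 4.3.3), with the compared groups only and no block, and the procedure was tested on simulated data. Study 1 and study 2 were fitted separately, TE over the 8 libraries of study 2, and the time difference over the 12 libraries of study 1 at 1.5 μM and vehicle.

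Center of density and Dmax followed the study's definitions, for transcripts with at least 10 reads. Z-scores were taken in bins of 300 transcripts and differ from those the paper describes. Each value was divided by the root mean square of its bin, without subtracting the bin's mean. For mean position this ratio was averaged over same-numbered pairs. The paper describes standard deviations from the bin mean. The study describes Dmax as a maximum divergence, and here only the excess of the compound over vehicle was taken. Same-numbered libraries deviated together in every pair for 1.5 μM at 60 min (correlations 0.521, 0.393 and 0.519 over 10168 transcripts), 0.3 μM at 10 min (0.199, 0.148 and 0.526) and 0.3 μM at 60 min (0.434, 0.432 and 0.550). The members and lists were chosen with earlier results of these data known. Named beside the 8 members were genes of the wider list called at an FDR of 0.1, its highest and lowest value in each 1.5 μM comparison among genes averaging 50 reads or more per library, and the 3 transcripts most like ERP29 across libraries. Alternatives were DESeq2 1.42.0, its size factors, no filter, an FDR of 0.05, a replicate block, other codons counted, other averages and leaving out each library. All intervals and p-values measure the spread between these samples.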

Additional observations from a re-analysis of the deposited data

How the results depend on the processing

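The count of the 8 genes called at 10 min and 1.5 μM depended on the settings. It was 1 (ERP29) with DESeq2, its size factors, no filter on low counts, or without the first and last 15 codons, 0 at an FDR of 0.05, and 0 with codons after 50 only, where the log2 fold change of ERP29 was -0.19. Leaving out a library gave 0 to 2: 0 without 1.5 μM replicate 1 or 2 or vehicle replicate 1 or 2, and 2 (ERP29 and ERP44) without vehicle replicate 3. The calls over all transcripts were 94 as reported, 29 at an FDR of 0.05, 516 with DESeq2, 195 with codons after 50, 232 without the first and last 15 codons, and 9 to 1656 with a library left out (1656 without vehicle replicate 3). In the other 7 comparisons every one of these settings, and the replicate block, left the count at 0, although the calls over all transcripts moved by more than 1.5 times: at 60 min 16 with DESeq2, 19 with codons after 50 and 0 to 8 with a library left out (0 without vehicle replicate 2), against 8, in study 2 29 with codons after 50 and 10 to 129 with a library left out (129 without 1.5 μM replicate 5), against 13, and for TE 11 with DESeq2, 15 with codons after 50, 2 at an FDR of 0.05 and 1 to 128 with a library left out (128 without the mRNA-seq library of vehicle replicate 4), against 4. The causes were not tested. Leaving out a library of study 2 leaves 1 in a group, which is assumed to vary like the others.

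A fit blocked on replicate number called 2 of the 8 at 10 min and 1.5 μM (ERP29 and ERP44, the latter at -0.34 with an edgeR adjusted p of 0.0826) among 1196 transcripts. There the correlations of same-numbered libraries were 0.191, 0.231 and 0.0655, and 5 of 6 libraries correlated best with their own number, a hint of pairing in the data. With 1 correlation below 0.1, the unblocked values were kept as reported. The block gave 51 calls at 60 min, 129 in study 2 and 13 for TE, with none of the 8, and changed no other call.

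The difference in mean position of ERP29 kept its sign in the 3 footprint comparisons at 1.5 μM, with -19.1 to -12.8 points at 10 min, -12.1 to -8.63 at 60 min and -9.39 to -8.06 in study 2 when a library was left out. At 0.3 μM, where this was added after seeing the data, it did not: the range was -9.12 (without 0.3 μM replicate 2) to 1.52 points (without 0.3 μM replicate 1) at 10 min, against -2.74, and -4.01 to 0.283 (without 0.3 μM replicate 1) at 60 min, against -2.05. The exon 1 ratio was 1.02 to 1.66 and 0.958 to 1.26 there, and 1.43 to 2.92 in the comparisons at 1.5 μM. In mRNA-seq the difference in mean position was 1.16 (without vehicle replicate 5) to 8.35 points (without vehicle replicate 4), against 4.76. With the median position it was -43.2, -15.8 and -37.9 points at 10 min, 60 min and in study 2, and without the first and last 15 codons it was -10.7 in study 2. With the groups exchanged, Dmax was 0.00056, 0.0015 and 0.0217, and 0.0906 in mRNA-seq; without the end codons it was 0.205 in study 2. Leaving out a library gave a Dmax of 0.142 to 0.183 in study 2 and 0.00032 to 0.0236 in mRNA-seq, where the mean over same-numbered libraries was 0.0200. Of 800 log2 fold changes of the 8 genes under alternatives that can alter them, 773 stayed within 1 SE of the reported value and 27 moved further. The sign changed in 78, of which 64 stayed within 1 SE and 14 did not. With codons after 50, ERP29 was also at -0.25 at 60 min, at -0.30 in study 2, at 0.11 in mRNA-seq and at -0.39 in TE. ERP29's 1789 to 2280 pooled footprints at 1.5 μM in study 1 set the precision of single codons.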

Other observations

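Over the 18 ribo-seq libraries of study 1, the transcripts whose log2(RPM + 1) followed that of ERP29 most closely among 9690 were GRHPR (Pearson r = 0.964), PAQR4 (r = 0.878) and a transcript without a symbol (ENST00000633491, r = 0.877). The 18 points share 6 groups and their depth, so these are descriptions. The relatives of ERP29 had r between -0.76 and -0.22, with P4HB the highest and PDIA3 the lowest.

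In PDIA3 and TXNDC5 the codon with the most reads was the same in all pooled footprint groups, while it changed between groups in the other relatives. PDIA3 had its largest pile of footprints at codon 200, with 4.26% of its reads with vehicle and 4.58% with 1.5 μM at 10 min, and 1.86% and 2.02% in study 2. TXNDC5 had its largest at codon 432 of its 433-codon map, with 5.52% and 4.99% at 10 min. In mRNA-seq the largest share at any codon was 0.69% in PDIA3 and 0.99% in TXNDC5 with vehicle.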
